A study of Caenorhabditis elegans with 4 samples.

Results

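The left arm of chromosome III carried 1385 of the 14662 LIN-61 peaks in the authors' list for the whole series. A peak was taken as a member when it lay on chromosome III with its midpoint between positions 1 and 4594566 of WormBase WS220, the first of 3 equal sections of the chromosome. This section makes up 4.58% of the sequence spanned by peaks in the genome, and it held 9.45% of the whole-series peaks. The same window held 1252 of 9958 peaks (12.6%) in replicate 1 and 1344 of 13486 (9.97%) in replicate 2. The first member began at position 1 of the chromosome. The last member inside the limit lay at 4564913 to 4565079, was 167 bp wide and had a score of 5.12, and the first peak outside it lay at 4649657 to 4649993, was 337 bp wide and had a score of 13.91. The limit therefore falls in a peak-free stretch and splits no cluster of peaks.

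The peaks come from chromatin immunoprecipitation followed by sequencing (ChIP-seq), which recovers DNA that was crosslinked to a protein. The study used 2 ChIP libraries and 2 input DNA libraries, all from wild-type Caenorhabditis elegans of strain N2 at the L3 larval stage, grown at 20 °C as mixed populations of males and hermaphrodites. The ChIP libraries were made with LIN-61 HM4077, an affinity-purified rabbit polyclonal antibody, and each gave its own peak list, while the input libraries were not analysed here. Chromatin came from whole larvae, so a peak present in some tissues cannot be told apart from one present in all. Whether the replicates came from separate cultures is not given in the sources used here, and the spread between them may be technical. The read depth is unknown for every list, so differences in peak number between the replicates cannot be told apart from differences in depth.

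LIN-61 is a repressive chromatin protein built of MBT (malignant brain tumour) repeats, modules that bind methylated lysines on histone tails, and it binds histone H3 methylated at lysine 9. It belongs to the synMuv B genes, which act together with other gene classes to keep vulval fates from arising in the wrong cells and to silence germline genes in the soma. C. elegans chromosomes have no single centromere. Their arms are rich in repeats and in methylated H3 lysine 9 and recombine often in meiosis, whereas the centres are dense in housekeeping genes. The left end of chromosome III also carries its meiotic pairing centre, to which the zinc finger protein ZIM-1 binds.

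Peaks on the left arm of III were dense in both replicates and covered more of the arm than on any other autosome arm. Its density was 272.5 peaks per Mb in the first replicate and 292.5 in the second, a mean of 282.5 ± 14 (SD, n = 2). The other 9 autosome arms averaged 145.1 peaks per Mb in replicate 1, with a range from 67.5 on the left arm of V to 215.4 on the left arm of IV. In replicate 2 they averaged 196.0, with a range from 114.7 on the right arm of IV to 294.8 on the left arm of I. The density of the left arm of III was thus above all 9 arms in replicate 1 and above 8 of 9 in replicate 2. Relative to the mean of the other 9 arms it was 1.69 ± 0.27-fold (SD, n = 2). In the whole-series list, from which the members were taken, the ratio was 1.42-fold (exact permutation p = 0.4). In that list the left arm of III had 301.4 peaks per Mb and the left arm of I had more, 323.8.

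Covered bases set the arm further apart than peak number did. Peaks covered 15.5% (replicate 1) and 19.6% (replicate 2) of the left arm of III, against at most 9.65% and 14.8% of any other autosome arm, both on the left arm of IV. The ratio to the mean of the other 9 arms was 2.19 ± 0.43-fold by covered bases (SD, n = 2). Peak numbers of the libraries compared differently here than elsewhere in the genome: replicate 2 had 1.07 times as many peaks as replicate 1 on the left arm of III, against 1.39 times over all other peaks. On the other 9 autosome arms this ratio ran from 1.13 on the left arm of IV to 1.80 on the left arm of V. The ratio depends on the length of the lists. With the lists kept to equal length by score, replicate 2 had 1069 peaks on the arm and replicate 1 had 1252, a ratio of 0.854, against 1.02 over all other peaks and 0.881 to 1.28 on the other autosome arms. These ratios were singled out after their values had been seen, and their dependence on depth was not tested.

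**Figure D1:**
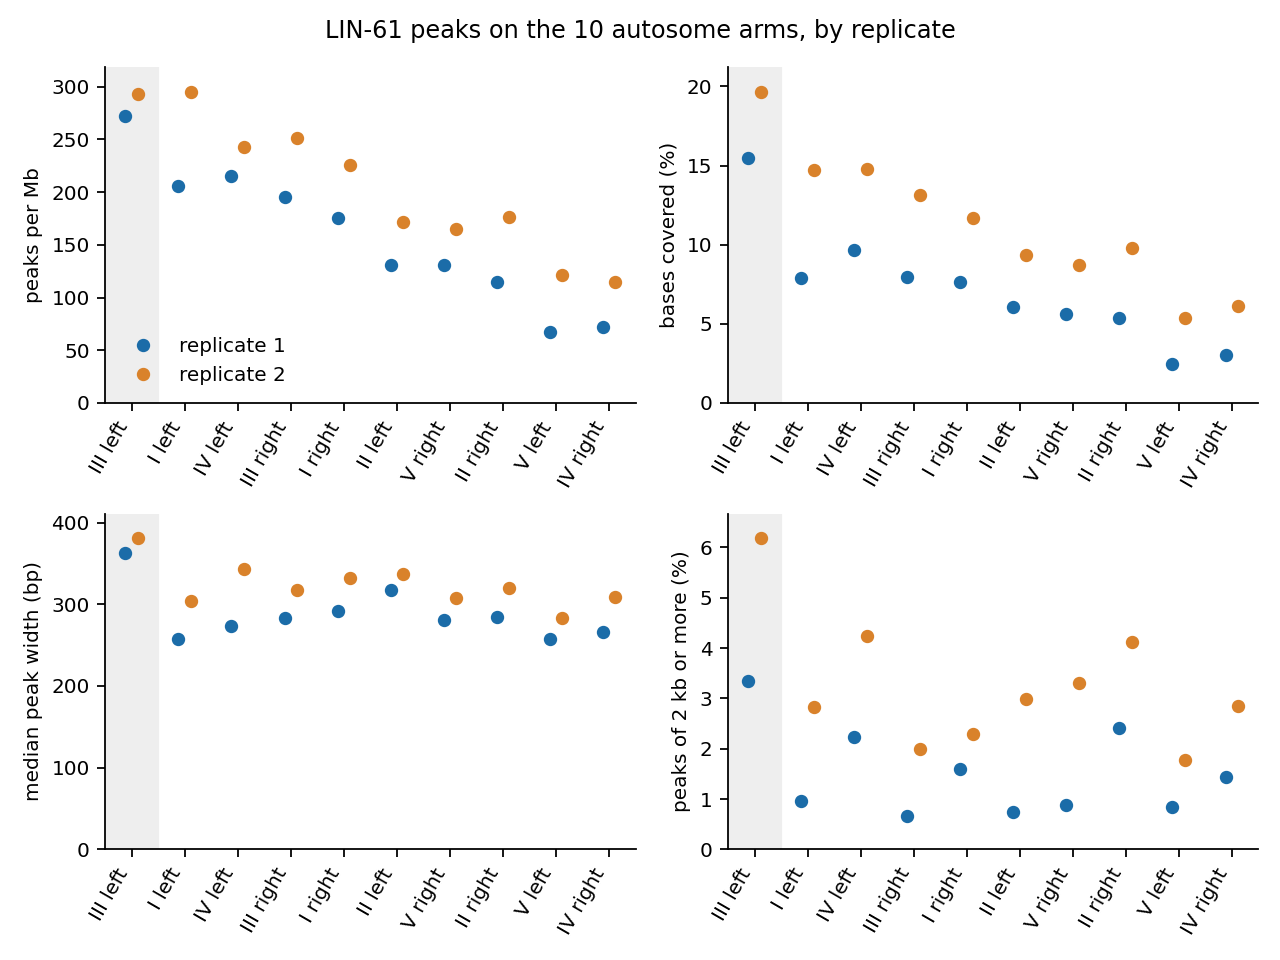
Peak density, bases covered, median peak width and the percentage of peaks of 2 kb or more (vertical axes, all from 0) on the 10 autosome arms (horizontal axes), with 1 point per replicate and the left arm of III shaded. In both replicates the left arm of III had the highest covered share, median width and share of broad peaks, and in density it stood slightly below the left arm of I in replicate 2 (292.5 against 294.8 peaks per Mb).

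The comparison of arms was tested with the arm as the unit, since peaks of 1 arm are neighbours and not replicates. In an exact two-sided permutation test of 1 arm against 9, the smallest p is 0.1, so this design cannot reach 0.05. The arm was also proposed with its density known, so the p for density reflects its rank and is no independent test. The density difference of 112.0 peaks per Mb had that smallest exact permutation p of 0.1, as did the difference in median width described below (Benjamini-Hochberg adjusted p = 0.15 over 3 tests for each). With peaks less than 500 bp apart counted as 1, the density ratio fell to 1.43-fold (exact permutation p = 0.4). By the mean of both replicates the left arm of III then had 149.96 per Mb, below the left arm of I at 158.1. In replicate 1 it still stood above all 9 arms.

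Density was far from even along the arm, but it was less uneven than on most other autosome arms. Across full bins of 100 kb, the SD of density was 74.4% (replicate 1) and 58.0% (replicate 2) of its mean. The other 9 arms averaged 90.6% and 66.5%. In this measure the left arm of III stood above 1 of 9 arms in replicate 1 and 2 of 9 in replicate 2. In windows of 500 kb counted from the chromosome end, the first window, from position 1 to 500000, held 262 (replicate 1) and 350 (replicate 2) peaks per Mb. The window from 500001 to 1000000 was sparse, with 78 and 146 peaks per Mb. From 1000001 to 1500000 the density was 384 in replicate 1 and 378 in replicate 2.

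The window from 1500001 to 2000000 was the densest of the arm, with 510 (replicate 1) and 480 (replicate 2) peaks per Mb, and peaks covered 38.1% and 43.4% of its bases. The next window, from 2000001 to 2500000, had 380 peaks per Mb in both replicates. The window from 2500001 to 3000000 had 282 and 334, and the one from 3000001 to 3500000 had 412 and 386. Density then dropped steeply towards the centre of the chromosome: 112 and 128 peaks per Mb from 3500001 to 4000000, and 66 and 88 from 4000001 to 4500000. The arm therefore held a broad dense block between about 1000001 and 3500000, a separate dense patch at the chromosome end, a sparse interval between them and a sparse inner part.

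The replicates differed more in some windows than in others. In the 4 windows starting at 1000001, 1500001, 2000001 and 3000001, replicate 2 had between 0.937 and 1.00 times as many peaks as replicate 1. In the sparse window from 500001 to 1000000 the ratio was 1.87, with 73 peaks in replicate 2 and 39 in replicate 1. It was 1.34 in the first window and 1.33 from 4000001 to 4500000.

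On a finer scale, all 45 full bins of 100 kb held at least 1 peak in each replicate. Counts ran from 1 to 75 per bin in replicate 1, with a median of 23, and from 2 to 65 in replicate 2, with a median of 27. Across these 45 bins the counts of the replicates had a Pearson's r of 0.937 and a Spearman's rho of 0.940. Bins of 1 chromosome are not independent, and broad changes in density enter this value, so it is given as a description. In 12 bins both replicates had 40 peaks or more, and these bins held 53.6% of the binned replicate 1 peaks and 45.7% of the binned replicate 2 peaks. In 18 bins both replicates had under 20.

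The densest bin lay at 1500001 to 1600000, where replicate 1 had 75 peaks and replicate 2 had 65, and peaks covered 67.2% and 74.9% of its bases. The bins at 1100001 to 1200000, with 59 and 61 peaks, and at 3100001 to 3200000, with 65 and 55 peaks, came next by the mean of both replicates. The bin at 1100001 was covered to 29.2% in replicate 1 and 47.9% in replicate 2, so nearly equal peak numbers went with different covered shares there. The sparsest bin, at 4300001 to 4400000, held 1 peak in replicate 1 and 2 in replicate 2. The bins at 700001 to 800000 and at 1300001 to 1400000 held 2 and 1 peaks in replicate 1, against 8 and 9 in replicate 2. The sparse bin at 1300001 lies inside the dense block, only 100 kb from the densest bin.

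**Figure D2:**
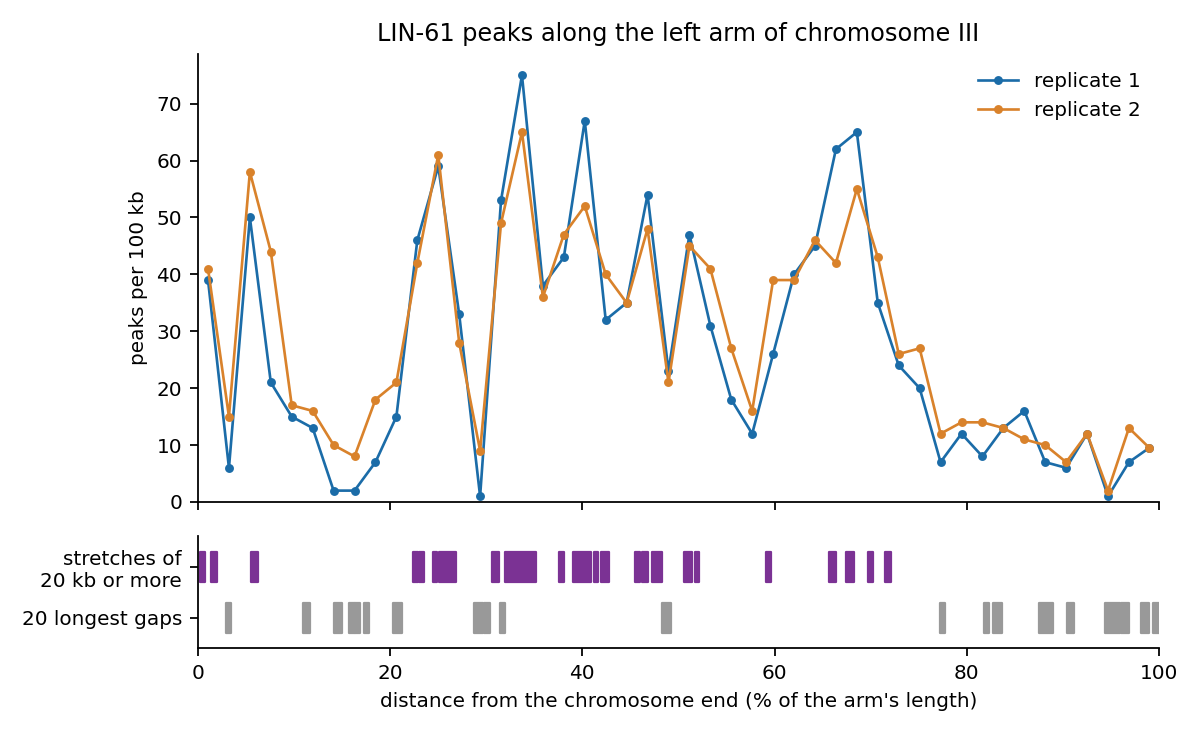
Upper panel: peaks per 100 kb (vertical axis) in each bin of the left arm of III, by distance from the chromosome end in percent of the arm's length (horizontal axis), with 1 line per replicate. Lower panel: the shared stretches of 20 kb or more with under 5 kb between neighbouring peaks, and the 20 longest gaps with no peak in any of the 3 lists. Gaps were cut at the arm's limits. The lines of the 2 replicates share their highs, up to 75 and 65 peaks per bin, and their lows, down to 1 and 2.

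The profile was set against the other autosome arms by dividing each arm into 10 equal segments counted from its chromosome end. In the segment at the chromosome end the left arm of III had 325.4 ± 63 peaks per Mb (SD, n = 2), against a mean of 150.01 and a highest value of 227.9 on the other 9 arms. In segment 4 it had 493.0 ± 23 against a mean of 230.5, and in segment 7 it had 472.3 ± 34 against a mean of 151.7. In these 3 segments it was above all 9 other arms in each replicate. In segment 6 it had 306.9 ± 37, above the highest other arm by the mean (299.3), above 9 of 9 arms in replicate 1 and above 8 of 9 in replicate 2. Segment 2 had the opposite rank: it held 94.7 ± 51 peaks per Mb on the left arm of III and a mean of 216.6 on the others, with 1 of 9 arms lower in each replicate and 0 of 9 lower by the mean of both.

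In segments 9 and 10, nearest the centre, the left arm of III had 109.9 ± 11 and 80.5 ± 12 peaks per Mb (SD, n = 2), against means of 70.3 and 64.9 on the other arms. The outer 50% of the left arm of III held 58.1% of its peaks in replicate 1 and 58.0% in replicate 2, against means of 65.3% and 63.2% on the other arms. In this measure it stood above 3 of 9 arms in both replicates. These segment ranks are descriptions of 10 arms and were not tested.

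**Figure D3:**
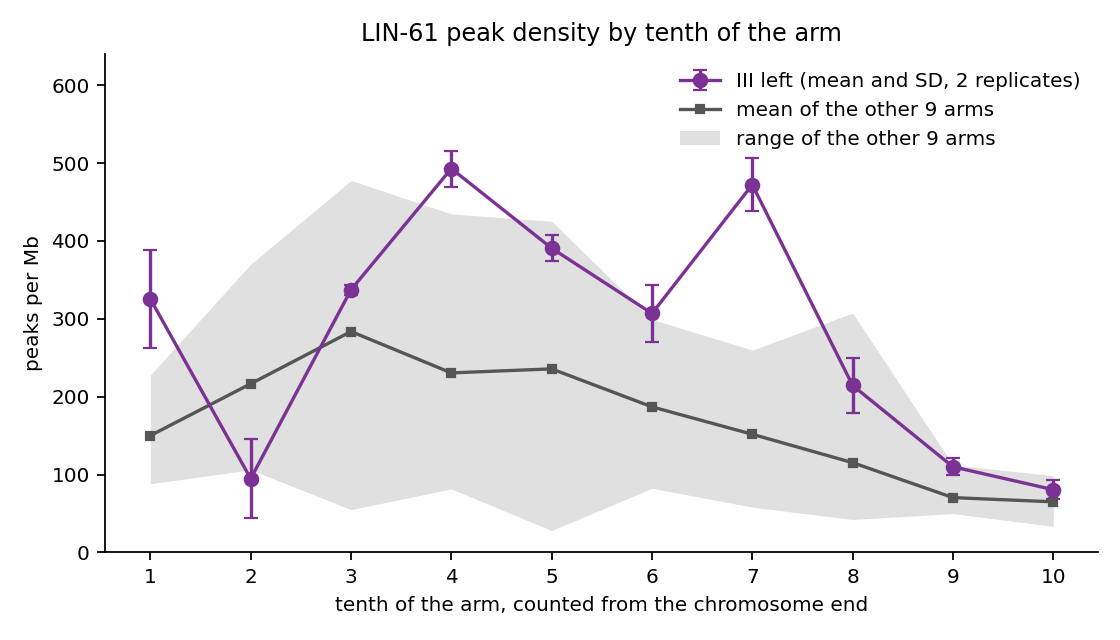
Peak density in peaks per Mb (vertical axis) in 10 equal segments of the arm, counted from the chromosome end (horizontal axis). The left arm of III is drawn as the mean of 2 replicates with the SD, and the other 9 autosome arms as their mean and range. By the mean of both replicates it stood above the range in segments 1, 4, 6 and 7, at 325.4, 493.0, 306.9 and 472.3 peaks per Mb, and at 94.7 under the lower edge of the range in segment 2.

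Neighbouring peaks lay close together on this arm. The median distance from a peak to the next was 512 bp (replicate 1) and 629 bp (replicate 2), the shortest of the 10 autosome arms in both. The other 9 arms had medians from 718 to 1362.5 bp in replicate 1 and from 749 to 1972 bp in replicate 2. Another peak lay within 1 kb for 83.6% (replicate 1) and 79.9% (replicate 2) of the peaks, above all 9 other arms, whose highest values were 78.1% and 75.8%.

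Within 5 kb the shares were 96.5% and 96.0%, on average 5.05 ± 1.2 percentage points above the mean of the other 9 arms (SD, n = 2; exact permutation p = 0.2, adjusted p = 0.2). In replicate 2 the left arm of III, at 96.0%, was below the left arm of I, at 96.4%. Within 20 kb the shares on the left arm of III were 99.3% and 99.6%, above 7 of 9 arms in each replicate. The part of the higher peak density in these distances and shares was not tested. Merging peaks less than 500 bp apart left 639 of the 1252 peaks in replicate 1 and 739 of the 1344 in replicate 2.

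Long runs of peaks with under 5 kb between neighbours, shared by both replicates, were frequent. There were 110 shared stretches of any length on the arm, inside the range of the others, from 54 on the right arm of IV to 140 on the left arm of I. Of the 110, 23 reached 20 kb. These 23 spanned 890.8 kb, or 19.4% of the arm, with 53.0% of all replicate 1 peaks on the arm and 40.5% of all replicate 2 peaks. The other 9 autosome arms had between 1 and 18 stretches of that length, which took up between 0.404% of the left arm of V and 11.5% of the left arm of IV. Peak density was higher on the left arm of III as well, and its part in this difference was not tested.

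The longest shared stretch, from 1468456 to 1619222, was 150.8 kb long and was covered to 61.5% in replicate 1 and 70.5% in replicate 2. It held 117 peaks in replicate 1 and 94 in replicate 2, and 21 whole-series peaks of 2 kb or more. The second, from 1791560 to 1879982, spanned 88.4 kb with 68 and 52 peaks, and 50.8% and 58.6% of it was covered. The third, from 1152194 to 1233318, spanned 81.1 kb with 52 and 44 peaks and was covered to 40.8% and 54.4%. In each of these 3 stretches replicate 1 had more peaks but fewer covered bases than replicate 2.

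The fourth stretch, from 2169198 to 2216804, spanned 47.6 kb with 31 and 22 peaks, and the fifth, from 1926798 to 1965914, spanned 39.1 kb with 20 and 19 peaks. Peaks covered 63.6% and 64.7% of the fifth. Together the 5 longest stretches spanned 407.0 kb, or 8.86% of the arm, with 23.0% of all replicate 1 peaks on the arm and 17.2% of all replicate 2 peaks. All 5 lay between 1152194 and 2216804, while the dense bin at 3100001 held the sixth, from 3099227 to 3136631, of 37.4 kb with 37 and 29 peaks.

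Gaps with no peak in any of the 3 lists were cut at the limits of each arm, and so measured they were short on the left arm of III. The longest inside the limits ran for 71.2 kb from 4335550 to 4406731 and the second for 68.0 kb from 4019043 to 4087076. Both lay in the inner part near the chromosome centre. The third, from 3800922 to 3844066, was 43.1 kb long. The fourth, from 1320917 to 1363421, was 42.5 kb long and the fifth, from 2219306 to 2261542, was 42.2 kb long, and both lay inside the dense block. The fifth began shortly after the end of the fourth longest stretch. On the other 9 autosome arms the longest gap measured between 80.2 kb on the right arm of IV and 161.1 kb on the right arm of II. The gap from 4565080 was cut to 29.5 kb at the limit of the left arm of III. The next peak in any list began at 4649645. Uncut, this gap is longer than 71.2 kb and than the 80.2 kb of the right arm of IV. The low rank of the left arm of III in this measure therefore depends on the cut.

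Gaps of 20 kb or more took up 19.6% of the left arm of III. They took up between 17.5% of the left arm of I and 59.9% of the left arm of V on the others. By single list the longest gap inside the limits was 129.3 kb in replicate 1, from 647982 to 777232, where replicate 2 had 8 peaks. In replicate 2 it was 71.2 kb.

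Peaks on the arm were wide. The median width was 362.5 bp for replicate 1 and 380.5 bp for replicate 2, against means over the other 9 arms of 279.1 and 317.0 bp. Widths on the left arm of III exceeded that mean by 73.5 ± 14 bp (SD, n = 2), by 83.4 bp for replicate 1 and 63.5 bp for replicate 2. They were above all 9 arms in both replicates. The widths at the upper end differed more: the 90th percentile of width was 1169.3 bp for replicate 1 and 1433.1 bp for replicate 2, against mean 90th percentiles of 837.4 and 1050.7 bp on the other arms. The single widest peak measured 4984 bp in replicate 1, where 5 of the other 9 arms had a wider one. In replicate 2 it measured 11413 bp, and 3 of the 9 arms had a wider one.

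Broad peaks of 2 kb or more numbered 42 in replicate 1 (3.35%) and 83 in replicate 2 (6.18%). The other 9 arms had at most 28 and 60, with shares of 0.667% to 2.40% in replicate 1 and 1.77% to 4.23% in replicate 2. Broad peaks held 17.3% of the peak bases of the left arm of III (replicate 1) and 29.9% (replicate 2), against means of 9.27% and 18.3% on the other arms. At the narrow end, peaks under 250 bp made up 34.7% of the peaks in replicate 1 and 29.5% in replicate 2, against 43.8% and 36.0% of the peaks of the other arms pooled.

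**Figure D4:**
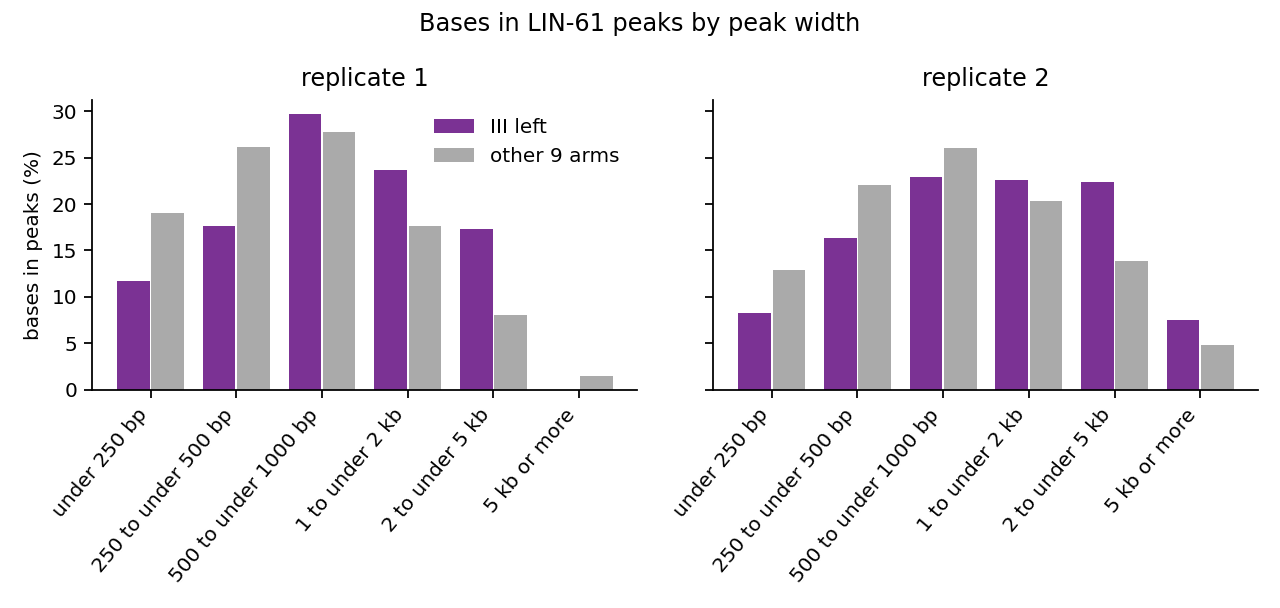
Share of all bases in peaks (vertical axis, %) by peak width class (horizontal axis) on the left arm of III and on the other 9 autosome arms pooled, with 1 panel per replicate. On the left arm of III peaks of 2 to under 5 kb held 17.3% of the bases (replicate 1) and 22.4% (replicate 2), against 8.02% and 13.9% on the other arms.

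The whole-series list drew larger regions than either replicate. Its 1385 members had a median width of 413 bp and covered 23.9% of the arm, and 128 of them (9.24%) were 2 kb or more wide. These 128 held 41.5% of the bases in members and lay mostly in the outer part, with 97 in the outer 50% of the arm and 31 in the inner 50%. Of all members, 752 (54.3%) lay in the outer 50% and 633 in the inner 50%. By window, 25, 36 and 22 of the broad members lay in the 3 windows between 1000001 and 2500000, 21 in the first window, and 0 beyond 4000001. The same 3 windows held 193, 216 and 193 of all members, and the first window held 171. The windows from 4000001 and from 4500001 held 57 and 12. The left arm of III held 21.8% of the 587 broad whole-series peaks of the 10 autosome arms and 11.8% of all their peaks.

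Many broad members overlapped several replicate peaks. Of the 128, 96 overlapped 2 or more peaks of replicate 1 and 79 overlapped 2 or more of replicate 2. Such counts are not given here for the other arms, so this is not shown to be particular to the left arm of III. Replicate peaks covered a median of 82.9% of a broad member in replicate 1 and 92.7% in replicate 2.

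The 5 widest members differed in this. The widest, from 3018226 to 3034663, was 16438 bp wide, and 14 peaks of replicate 1 and 5 of replicate 2 lay on it, covering 80.7% and 93.6% of its bases. Its score of 92.7 was not among the 10 highest of the arm. The second, from 2194039 to 2205488, was 11450 bp wide and was a single peak over 99.7% of its length in replicate 2, but 8 peaks in replicate 1.

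The third widest, from 1512875 to 1523691, measured 10817 bp, and replicate 1 had 5 peaks on it and replicate 2 had 3. The fourth, from 1934531 to 1943313, measured 8783 bp with 5 and 4 peaks, and the fifth, from 1526270 to 1534124, measured 7855 bp with 4 and 3 peaks. All 5 lay in shared stretches of more than 30 kb, and the third and the fifth lay in the longest one.

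Peaks on the arm also ranked high by the deposited score, whose meaning is not stated and which served here only for ranks inside each list. The median score of the arm's peaks stood at percentile 68.3 of the replicate 1 list and at percentile 64.7 of the replicate 2 list. The other 9 arms had medians between percentiles 40.2 and 65.7 in replicate 1 and between 45.1 and 58.4 in replicate 2, highest in both on the left arm of II. Of the 100 highest scores of the whole-series list 35 belonged to the left arm of III, and of the 500 highest 146 did (29.2%), set against 9.45% of all its peaks.

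The highest-scoring member lay at 1615130 to 1617366, near the inner end of the longest stretch, and the authors' list gives it 209.2. The replicate peaks on it scored 212.9 (replicate 1) and 215.6 (replicate 2), but replicate 1 covered 63.5% of it and replicate 2 covered 98.6%. The next, from 1512875 to 1523691, scored 206.0 and is also the third widest. The member from 2146142 to 2151747 scored 202.7, and the better of the 2 replicate 1 peaks on it scored 234.1, the highest score of the whole replicate 1 list.

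The fourth by score, from 2836235 to 2838003, was the narrowest of the 10 highest at 1769 bp. It lay in a short stretch of the window from 2500001. Scores of the other 6 ran from 193.8 to 176.1, and they lay at 1606921 to 1610396, 1934531 to 1943313, 1898608 to 1901208, 1874833 to 1877853, 2393313 to 2395767 and 2480973 to 2483749. Each of the 10 was overlapped in both replicates. Scores are tied among them: the fifth and the sixth both had 193.8, and the eighth, the ninth and the tenth all had 176.1. The genes and repeats at these positions were not analysed here, because the annotation used here is of another genome build.

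The replicates shared more of their peaks on this arm than on any other autosome arm. Of the 1385 members, 736 overlapped peaks of both replicates by at least 1 bp, or 53.1% (exact 95% interval 50.5 to 55.8), where the share over all 14662 whole-series peaks was 37.2%. The other 9 arms ranged from 28.4% on the right arm of IV to 48.2% on the left arm of II. A further 346 members (24.98%) were found in replicate 2 only, 120 (8.66%) in replicate 1 only and 183 (13.2%) in neither. The share found in replicate 2 only was the lowest of the 10 arms, with 32.6% to 48.8% on the others. The share found in neither lay inside their range of 10.6% to 15.9%.

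From the replicate lists, 82.9% of the replicate 1 peaks on the arm (1038 of 1252, exact 95% interval 80.7 to 85.0) overlapped a replicate 2 peak, where 74.7% of all replicate 1 peaks did. Of the replicate 2 peaks 66.7% (896 of 1344, 64.1 to 69.2) overlapped a replicate 1 peak, where 47.1% of all replicate 2 peaks did. The highest values on the other arms were 81.2% on the left arm of II and 56.3% on the left arm of IV. By bases, the lists had 590.3 kb in common on the left arm of III. Of its own peak bases, replicate 1 shared 83.1% and replicate 2 shared 65.4%, against at most 78.6% and 50.9% on the other arms, both on the left arm of II. Intervals cover counting error only and treat neighbouring peaks as independent, which they are not.

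**Figure D5:**
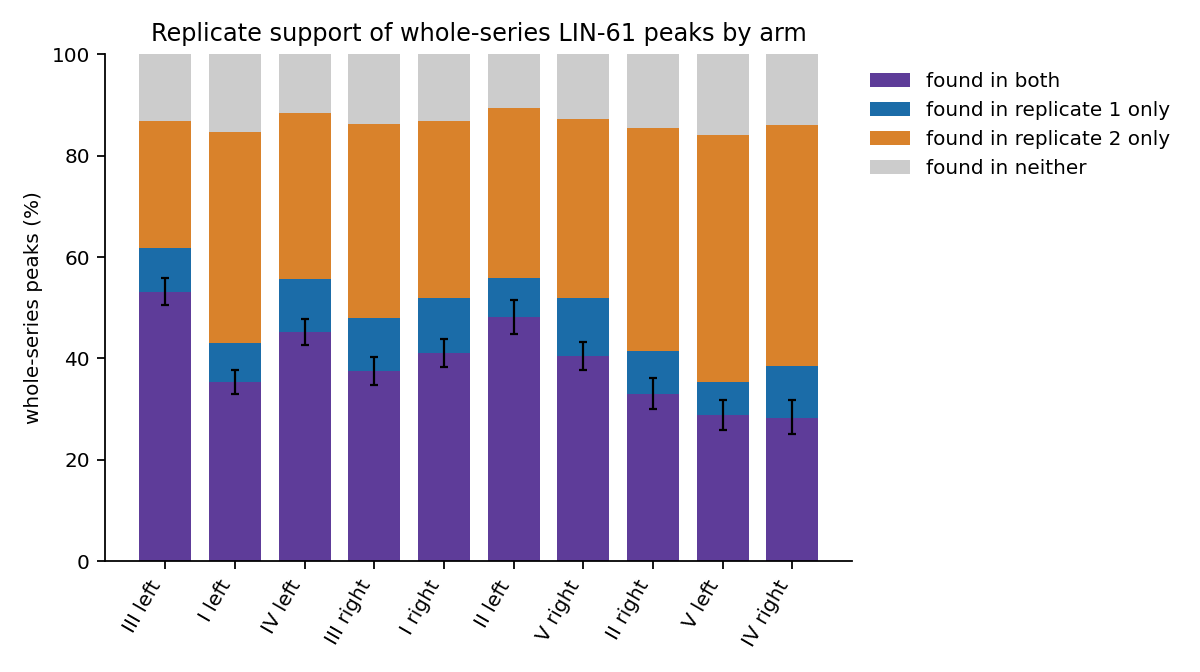
Share of whole-series peaks (vertical axis, %) found in both replicates, in 1 of them or in neither, on each autosome arm (horizontal axis). Black bars are exact 95% intervals of the share found in both. The left arm of III had the highest share found in both, 53.1%, and the lowest found in replicate 2 only, 24.98%.

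Sharing differed by width and score. Of the members under 250 bp wide, 12.0% (47 of 392) were found in both replicates, and the share was 47.1% at 250 to under 500 bp, 78.0% at 500 to under 1000 bp, 90.2% at 1000 to under 2000 bp and 96.1% at 2000 bp or more (123 of 128). By score, 1.57% of the lowest-scoring 25% of members and 99.1% of the highest-scoring 25% (346 of 349) were found in both. Of the 183 members found in neither replicate, 142 were among the lowest-scoring 25% and 148 were narrower than 250 bp. Their median width was 182 bp, against 696 bp for the members found in both.

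Since peaks were wider on this arm, sharing was also compared within width classes. Among peaks under 250 bp, 12.0% of those on the left arm of III and 5.27% of those on the other 9 arms pooled were found in both replicates. At 250 to under 500 bp the shares were 47.1% and 31.3%, at 500 to under 1000 bp 78.0% and 66.9%, and at 1000 to under 2000 bp 90.2% and 85.2%. In these 4 classes the left arm of III stood above each of the 9 arms. At 2000 bp or more the shares were 96.1% and 93.2%, and the left arm of III stood above 7 of 9. Within classes of score, set by the 25%, 50% and 75% points of the member scores, the order was not the same throughout. In the lowest class 1.57% of peaks on the left arm of III and 2.65% on the other arms pooled were found in both, and the left arm of III stood above 2 of 9 arms. In the second class the shares were 28.6% and 21.7% and in the third 80.4% and 68.8%, above 9 of 9 arms in each. In the highest class they were 99.1% and 96.8%, above 7 of 9. Peaks also covered more of the left arm of III (15.5% and 19.6%), and the part of the covered share in these values was not tested.

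Along the arm, the share of members found in both replicates was highest in windows of the dense block, but not high in all of them. It was 64.4% (95% interval 57.3 to 71.2) in the window from 3000001 to 3500000, 62.0% (55.2 to 68.5) from 1500001 to 2000000 and 61.7% (54.4 to 68.5) from 2000001 to 2500000. Also within the block, it was 54.4% (47.1 to 61.6) from 1000001 to 1500000 and 47.1% (39.8 to 54.5) from 2500001 to 3000000. In the window at the chromosome end it was 45.6% (38.0 to 53.4). It was 41.1% (29.7 to 53.2) from 500001 to 1000000, 33.3% (23.6 to 44.3) from 3500001 to 4000000 and 36.8% (24.4 to 50.7) from 4000001 to 4500000. From 4500001 to the limit it was 50% (21.1 to 78.9), with only 12 members. The median width of members also differed by window, from 590 bp at 1500001 to 2000000 down to 276 bp at 4000001 to 4500000. It did not follow density throughout: it was 390 bp in the sparse window from 500001 to 1000000 and 360 bp from 2500001 to 3000000 in the dense block.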

How the data were processed

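LIN-61 ChIP-seq peaks of 2 ChIP libraries were used. BWA aligned the reads to ce10, per the submitters' processing notes, and MACS called the peaks on WormBase WS220, per the file headers. For versions, thresholds, use of the input as control and the making of the whole-series list, nothing is given in the sources used here. Each deposited peak has a position and a score, and the deposited score served only to rank or filter within a list.

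Groups came from the titles. Chromosomes, from position 1 to their last peak end, were divided into 3 equal sections, and a peak belongs to the section of its midpoint (1-based). Overlap means at least 1 bp, and distances run from a peak's end to the next start. Arms were compared by an exact permutation test over 10 arms, with Benjamini-Hochberg adjustment over 3 tests. Shares have exact Clopper-Pearson intervals. Gaps were cut at the limits of each arm. Named regions are the 10 highest scores, the 5 widest members, the 5 longest shared stretches and gaps, and the 3 densest and 3 sparsest full 100 kb bins. The sixth stretch was named after its values were seen. Members, lists and rules were chosen with earlier results of these data known, and width and score classes, segments and lists of equal length after seeing the data. No genome of the files' build was used, so no sequence or gene is given. Functions were tested on simulated peaks (Python 3.11.15, NumPy 2.4.6, SciPy 1.17.1).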

Additional observations from a re-analysis of the deposited data

How the results depend on the processing

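The 3 tested contrasts with the other arms (density, median width, neighbours within 5 kb) kept their direction in every alternative run, and none could pass 0.05 by the exact permutation test. The whole-series list gave 301.4 peaks per Mb, 23.9% covered, 9.24% broad peaks, 54.3% in the outer 50% and a longest stretch of 175.0 kb. The higher-scoring 50% of each list gave 177.9 peaks per Mb, 7.61% broad, 59.9% outer, a stretch of 129.4 kb, a longest gap of 142.6 kb, 60.1% of members found in both replicates, and 87.9% and 73.2% of replicate 1 and replicate 2 peaks found in the other list. Merging peaks less than 500 bp apart gave 149.96 peaks per Mb, 18.6% broad and 52.2% outer. Arms as the outer 25% gave 341.4 peaks per Mb, 22.1% covered and 43.2% outer. Reciprocal overlap of 50% gave 32.7% of members in both, and 48.1% and 44.8% of the replicate peaks shared, and the midpoint rule 43.0%, 76.7% and 57.4%. Joining distances of 1 kb and 20 kb gave stretches of 23.1 and 396.6 kb. Lists of equal length by score, added after seeing the data, gave 252.6 peaks per Mb and shares of 77.5% and 75.02%, and replicate 2 then had 1069 peaks on the arm, against 1252 in replicate 1. With a replicate left out, the longest stretch ran from 150.8 to 170.5 kb. The longest gap inside the arm's limits ran from 71.2 to 129.3 kb, and the longer value of each was in replicate 1. The density ratio ran from 1.49 to 1.88 (exact permutation p = 0.3 and 0.1), and was 1.42 (p = 0.4) in the whole-series list. Apart from what the settings themselves change, the cause was not tested. No paired analysis was possible because no values of the input libraries were analysed here. Unknown depth limits any reading of peak numbers between replicates.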

Other observations

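Where a replicate 1 peak and a replicate 2 peak covered at least 50% of each other, the pair can be compared directly. The left arm of III had 602 such pairs, and their scores had a Spearman's rho of 0.835. On the other 9 autosome arms there were 117 to 420 pairs, with rho from 0.504 on the left arm of V to 0.818 on the left arm of II. The widths of the 602 pairs had a rho of 0.923, and the replicate 2 peak was a median of 1.06 times as wide as its replicate 1 partner. On the other arms the width rho ran from 0.829 on the left arm of V to 0.908 on the right arm of II. Their median width ratio ran from 1.05 on the right arm of I to 1.21 on the right arm of II. The overlap rule itself limits how far paired widths can differ, so these width values are no independent measure of agreement. Pairs on 1 arm share both libraries and are not independent, so no p is given.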
